A study of Rattus norvegicus with 6 samples.

Results

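The genes described here are 6 genes of electrical conduction in the heart: Scn4b, which encodes an accessory subunit of the voltage-gated sodium channel; the connexin genes Gja1, Gja5 and Gjc1; and the pacemaker channel genes Hcn2 and Hcn4. They were chosen by name from the deposited table, in which each name had 1 row, so they are 6 of the 32623 genes listed, and all 6 were among the 13964 genes that could be tested. RNA sequencing was performed on myocardium of male WT rats, 3 sham and 3 with ischemia, produced by tying off the left anterior descending coronary artery for 30 min. All rats were anesthetized and ventilated and had the chest opened on the left side; for sham rats no ligation is described, and the strain, age and exact part of the heart taken are not given in the sources used here. Samples are numbered 1 to 3 within each group, but nothing says whether each came from 1 rat, so p-values measure the spread between these samples, which may be partly technical.

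An action potential in working myocardium starts with sodium entry through a pore-forming subunit, whose gating and surface level are tuned by small beta subunits such as the Scn4b product. The current then passes to the next cell through gap junctions, channels made of connexins: Gja1 encodes Cx43, the main connexin of the working ventricle, Gja5 encodes Cx40 of the atria, the ventricular conduction system and arterial endothelium, and Gjc1 encodes Cx45, best known from the sinus and atrioventricular nodes. HCN channels open on hyperpolarization, bind cyclic AMP and carry the pacemaker current; Hcn4 is the main isoform of the sinus node and Hcn2 is also found in working myocardium. Because RNA was taken from whole tissue, fewer cells of a type and less RNA per cell cannot be told apart in any value below.

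None of the 6 genes passed the test between ischemia and sham (edgeR's quasi-likelihood test with Benjamini-Hochberg adjustment over all tested genes, threshold 0.05), against 5.18% of all tested genes that were called higher and 1.53% called lower. At an unadjusted p under 0.05 edgeR gave 2 of the 6, beside 32.4% of all tested genes. DESeq2 called 1 of the 6 higher and 1 lower, beside 14.9% and 12.6% of all genes, and limma called 0, beside 6.09% higher and 1.88% lower. The clearest separation between the groups was that of Gja5, whose level was 1.69-fold higher in ischemia with every ischemia sample above every sham sample, at an adjusted p of 0.0608. The largest estimated difference was that of Hcn2, 5.51-fold lower in ischemia, and without 1 sham sample it was far smaller. Gja1 had the highest level in all 6 samples and a lower mean in ischemia, with groups that overlapped. Scn4b and Hcn4 varied up to 10.2-fold and 7.96-fold between samples, and Gjc1 had nearly the same mean in both groups.

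The samples differed in ways that their group labels do not describe, and these differences touch several of the genes. Total counts ranged from 68529126 to 79591989 per sample, the mitochondrial genome took 15.4% to 21.4% of them, and no libraries were copies of one another. Summed FPKM (fragments scaled by gene length and library size) of 6 atrial genes, led by the atrial light chain gene Myl7 and the natriuretic peptide gene Nppa, was 48357 in sham 1 and 39355 in sham 3 but 216.2 in sham 2, and it was 9613, 2083 and 1282 in ischemia 1 to 3. Summed FPKM of 4 ventricular genes, among them the ventricular light chain genes Myl2 and Myl3, ran the other way, at 1797 and 1987 in sham 1 and 3, 13492 in sham 2 and between 4658 and 9514 in ischemia. Sham 1 and 3 therefore stood apart from the other 4 samples as rich in atrial and poor in ventricular transcripts. In ischemia 2 and 3 most of the atrial sum was Nppa, at 2051 and 1251 FPKM. Myl7 there was at 10.0 and 12.3 FPKM, against 116.9 in sham 2. The mean log2 CPM (counts scaled to library size) of the 6 atrial genes was 3.13 and 2.90 in ischemia 2 and 3, below 3.48 in sham 2. Sham 1 also went against the label of male rats, with 4 counts of the Y-linked gene Eif2s3y and 0 of Kdm5d, where the other 5 samples had at least 894 and 773. Cardiomyocyte transcripts were abundant in all 6 samples. The 7 markers found in the table, Myh6 and Tnnt2 among them, summed to 26597 to 32996 FPKM in sham. In ischemia they summed to 10037 to 18290 FPKM. Transcripts of other tissues were present too. Lung epithelial genes summed to 410.6 FPKM in ischemia 1. In sham 3 adipocyte markers summed to 186.7 FPKM and neuron and Schwann cell markers to 179.0 FPKM. Neutrophil and monocyte markers such as S100a8 and S100a9 summed to 103.1 to 181.7 FPKM in sham and 1249 to 8544 in ischemia, and 8 of the 9 tested passed as higher.

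The promoters of the member genes are shown for Gja5, the gene with separated groups, and for Scn4b and Hcn2, which were both highest in sham 2. The RefSeq promoter table, on the rat build GRCr8, held 4 of the 6 genes; Gja1, the fourth, is not shown because its window ran past the start that the RefSeq gene table gives. Each sequence is the 250 bases before the annotated start, 5′ to 3′ on the gene's strand, at chr2:187290977-187291226 (plus) for Gja5, chr8:54343623-54343872 (plus) for Scn4b and chr7:10639458-10639707 (minus) for Hcn2, and capitals mark a match to a searched motif.
Gja5: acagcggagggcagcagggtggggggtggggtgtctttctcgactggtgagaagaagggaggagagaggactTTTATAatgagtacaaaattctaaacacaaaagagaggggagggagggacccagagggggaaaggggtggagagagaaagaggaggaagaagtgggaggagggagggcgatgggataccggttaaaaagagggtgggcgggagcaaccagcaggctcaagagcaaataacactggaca
Scn4b: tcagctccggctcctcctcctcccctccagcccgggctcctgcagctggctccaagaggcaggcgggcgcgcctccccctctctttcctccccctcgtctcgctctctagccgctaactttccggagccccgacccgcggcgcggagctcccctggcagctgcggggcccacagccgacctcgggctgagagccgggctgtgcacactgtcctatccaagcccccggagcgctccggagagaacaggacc
Hcn2: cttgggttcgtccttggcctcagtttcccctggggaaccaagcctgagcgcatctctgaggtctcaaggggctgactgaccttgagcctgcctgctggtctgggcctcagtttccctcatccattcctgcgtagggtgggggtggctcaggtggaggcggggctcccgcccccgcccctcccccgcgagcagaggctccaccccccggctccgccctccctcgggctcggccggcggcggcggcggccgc
These windows differ in base composition. GC made up 54.8% of the Gja5 window, with 5 CpG dinucleotides, and 71.6% of both the Scn4b and the Hcn2 window, with 21 and 18 CpG dinucleotides, against a median of 51.2% over 33469 promoters. Both strands were searched for 7 short motifs, given here with the share of all promoters of that length holding each. GGTGTG, bound by T-box factors, was held by 15.4% of them. The cardiac factor NKX2-5 was represented by TNAAGTG, with a share of 9.89%. AGATAA, the site of zinc finger factors of the Gata4 family, had a share of 10.3%. For MEF2 the letters were TAAAAATA and the share was 2.44%. The AP-1 site TGANTCA was present in 6.34% of promoters. ACGTG, the core of the hypoxia response element, was found in 16.6%. The core promoter box TATAAA was found in 12.9%. In the 3 windows shown the only match was TATAAA on the minus strand for Gja5, at position -178 from the start. The Gja1 window, whose positions are uncertain for the reason given, held 1 match each to the Gata4 family motif, the hypoxia response core and the AP-1 site. A match is a description of the letters and not a binding site.

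Scn4b, on chromosome 8 (49441106 to 49456279, plus strand, as the table lists it with no genome build), had FPKM of 6.06, 37.7 and 6.58 in sham 1 to 3 and 17.8, 3.68 and 4.07 in ischemia 1 to 3. Sham 2 was highest, at 2.11 times ischemia 1, and the groups overlapped. Means were 16.8 ± 18.1 FPKM in sham and 8.53 ± 8.07 FPKM in ischemia (SD, n = 3 each). The log2 fold change was -1.19 ± 1.02 (SE), with a 95% interval from -3.65 to 1.27 and an adjusted p of 0.440 by edgeR. Counts behind these values were 1180 to 13044 per sample, so counting error was small beside the spread between samples. The direction turned without sham 2, to a log2 fold change of 0.46 (adjusted p = 0.728). With all samples kept it was 0.070 with the cardiomyocyte and ventricular markers together as a covariate (adjusted p = 0.944) and -1.54 with the ventricular markers alone (adjusted p = 0.0988). Without sham 1 it was -1.62, and without ischemia 1 it was -2.35. Of the 4 ventricular markers, Irx4 and Myl2 were highest in sham 2 and ischemia 1, the 2 samples with high Scn4b, Myl3 in sham 2 and ischemia 3, and Myh7 in ischemia 1 and 3. The ventricular sum was nearly equal in ischemia 1 and 3 (9514 and 9495 FPKM), which had 17.8 and 4.07 FPKM of Scn4b.

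**Figure D1:**
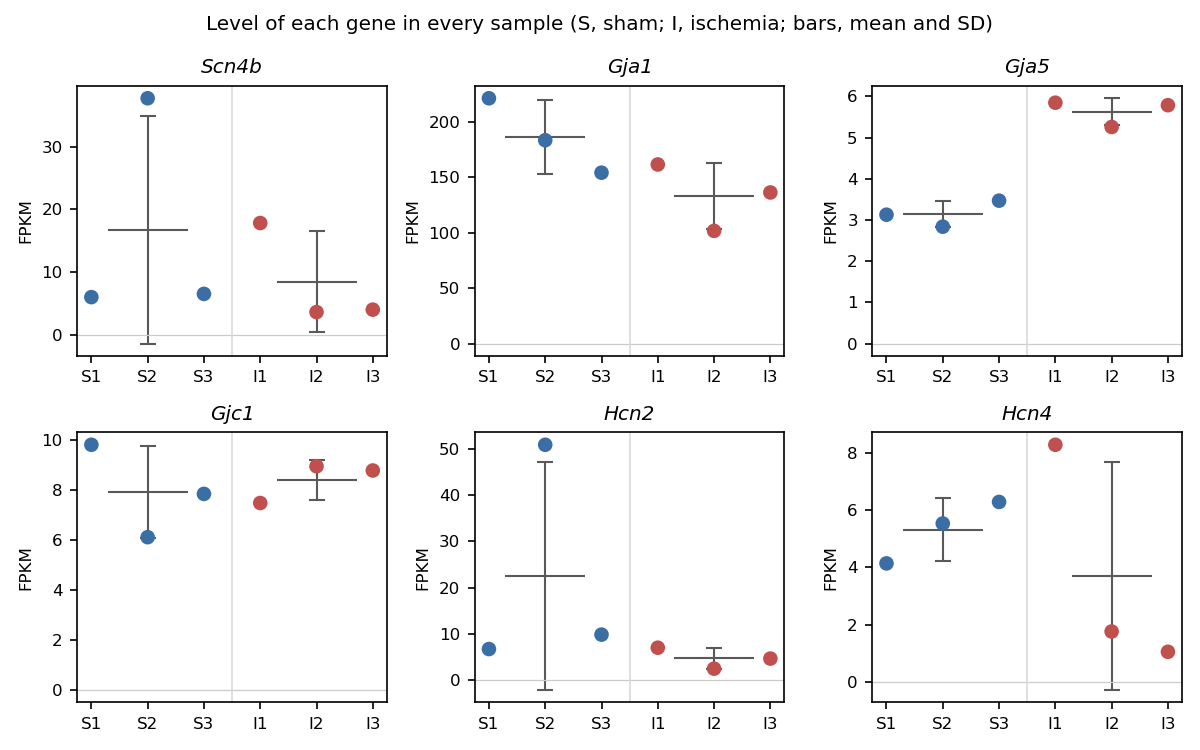
Level of each of the 6 genes in FPKM (linear axis, each panel with its own scale) in sham (S1 to S3, blue) and ischemia (I1 to I3, red). Points are single samples and bars give the mean and SD of 3; only the Gja5 groups are apart, while Scn4b and Hcn2 each have 1 sham point, S2, far above the others.

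Among the connexins, Gja1 (chromosome 20, 37876650 to 37889089, plus strand) had FPKM of 221.0, 183.2 and 154.0 in sham 1 to 3 and 161.4, 101.6 and 136.1 in ischemia 1 to 3. Ischemia 1 lay above sham 3, and the other 2 ischemia samples lay below all sham samples. The mean was 186 ± 33.6 FPKM in sham and 133.0 ± 30.0 FPKM in ischemia. The log2 fold change was -0.57 ± 0.29 (95% interval -1.27 to 0.14, adjusted p = 0.223 by edgeR). It stayed below 0 in all 21 other settings tried, between -0.75 and -0.37, and passed the threshold in none of them. The summed cardiomyocyte markers were lower in every ischemia sample than in any sham sample. Of the 7 markers, 4 had all ischemia samples below all sham samples, a pattern of 15.0% of all tested genes, and none passed by edgeR. Their part in the Gja1 difference was not tested alone. A fit with the mean log2 CPM of the cardiomyocyte and ventricular markers together as a covariate, a level that overlapped between the groups and was highest in sham 2, gave -0.43 (adjusted p = 0.222).

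Gja5 (chromosome 2, 199162745 to 199184939, plus strand) was low but evenly measured, with FPKM of 3.13, 2.84 and 3.47 in the sham samples and 5.85, 5.26 and 5.79 in the ischemia samples. The groups did not overlap, and the lowest ischemia sample was 1.52 times the highest sham sample. The same pattern, ischemia above sham without overlap, held for 23.6% of all tested genes, and the reverse for 15.0%. Means were 3.15 ± 0.316 and 5.63 ± 0.324 FPKM, from 709 to 776 counts per sham sample and 1216 to 1486 per ischemia sample. The log2 fold change was 0.76 ± 0.19 (95% interval 0.30 to 1.22) with an unadjusted p of 0.00626 and an adjusted p of 0.0608 by edgeR, which ranked Gja5 1437th of all tested genes. DESeq2, run as an alternative, called it higher (0.73, adjusted p = 0.00186), as it did 14.9% of the genes for which it gave an adjusted p. The log2 fold change stayed between 0.68 and 0.85 in the 20 other settings that tested it, and only DESeq2 passed it. Sham 2 alone, the sham sample without high atrial transcripts, gave 0.69 against ischemia (adjusted p = 0.410), with the lone sample assumed to vary like the ischemia group. Arterial endothelial markers were summed beside it: 5 of them (Efnb2, Dll4, Sox17, Gja4 and Hey1) came to 34.8 to 40.0 FPKM in sham and 41.1 to 55.7 FPKM in ischemia, where 3 of the 5 log2 fold changes lay above 0 and none passed by edgeR. Sox17 and Gja4 were higher in all ischemia samples than in any sham sample, Hey1 was lower in all of them (log2 fold change -1.14, adjusted p = 0.223), and Efnb2 and Dll4 overlapped. General endothelial markers summed to 157.1 to 175.1 FPKM in sham and 156.8 to 177.3 FPKM in ischemia. The part of arterial cells in the Gja5 difference was not tested.

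Gjc1 (chromosome 10, 90781402 to 90912287, minus strand) had FPKM of 9.83, 6.13 and 7.86 in the sham samples and 7.49, 8.97 and 8.80 in the ischemia samples. The highest and the lowest sample were both sham, and the means, 7.94 ± 1.85 and 8.42 ± 0.805 FPKM, lay closer together than the SD of sham. The log2 fold change was 0.01 ± 0.20, and its 95% interval of -0.46 to 0.49 leaves room for changes of that size in either direction (adjusted p = 0.969 by edgeR). Gjc1 was the only one of the 6 genes with another listed gene inside its bounds, a pseudogene on the opposite strand that had 0 counts in all samples.

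**Figure D2:**
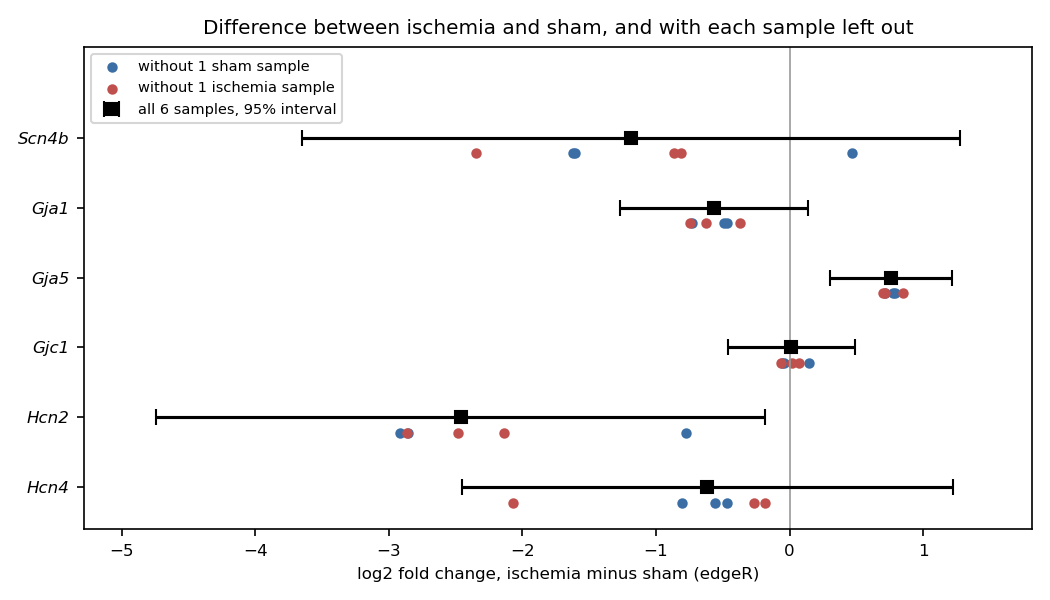
Log2 fold change of each gene, ischemia minus sham, from edgeR (black squares, 95% interval) and the same value with 1 sham sample (blue) or 1 ischemia sample (red) left out. The Gja5 points stay between 0.70 and 0.85, whereas Scn4b crosses 0 and Hcn2 shrinks to -0.77 when sham 2 is left out.

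The pacemaker channel gene Hcn2 (chromosome 7, 12851739 to 12874215, minus strand) had FPKM of 6.72, 50.9 and 9.85 in sham 1 to 3 and 7.01, 2.48 and 4.66 in ischemia 1 to 3. Sham 2 was 5.17 times the next sample, and sham 1 lay just below ischemia 1, so the groups overlapped. The mean was 22.5 ± 24.7 FPKM in sham and 4.72 ± 2.27 FPKM in ischemia. The log2 fold change was -2.46 ± 0.95 (95% interval -4.74 to -0.18) with an unadjusted p of 0.0381 and an adjusted p of 0.134 by edgeR. An unadjusted p under 0.05 was reached by 32.4% of all tested genes and by Gja5 and Hcn2 of the 6. Without sham 2 the log2 fold change of Hcn2 was -0.77 (adjusted p = 0.362), and without sham 1, the library that went against its sex label, it was -2.92 (adjusted p = 0.176). DESeq2 called Hcn2 lower (-2.50, adjusted p = 0.0188), as it did 12.6% of genes, and so did edgeR with the mean level of the ventricular genes as a covariate (-2.68, adjusted p = 0.0346), a fit added after the data were seen that called 3.21% of all genes lower. With the planned covariate of cardiomyocyte and ventricular markers together it was -1.16 (adjusted p = 0.119). The atrial-rich sham 1 and 3, at 6.72 and 9.85 FPKM, lay close to the 7.01 FPKM of ischemia 1.

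Hcn4 (chromosome 8, 63600663 to 63639654, plus strand) had FPKM of 4.14, 5.54 and 6.30 in the sham samples and 8.30, 1.76 and 1.04 in the ischemia samples. Ischemia 1 held the highest value of all and the other ischemia samples the lowest 2, so the ischemia group spanned a 7.96-fold range on either side of sham. Means were 5.33 ± 1.09 and 3.70 ± 4.0 FPKM, and the log2 fold change was -0.62 ± 0.76 (95% interval -2.45 to 1.22, adjusted p = 0.594 by edgeR). Without ischemia 1 it was -2.07 and passed the threshold (adjusted p = 0.0211), in a fit that called 7.98% of all tested genes lower. Without ischemia 2 it was -0.27 and without ischemia 3 it was -0.18, and neither passed. Ischemia 1 also had the highest atrial sum of its group and was the only sample rich in the airway secretory gene Scgb1a1, at 394.4 FPKM against at most 15.1 in the others; the part of either in the Hcn4 value was not tested.

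Exact two-sided permutation tests on log2(FPKM + 0.1), whose smallest possible p with 3 samples a group is 0.1, gave 0.1 for Gja5, 0.2 for Gja1 and Hcn2, 0.4 for Hcn4, 0.5 for Scn4b and 0.7 for Gjc1. None of the 6 genes had a log2 fold change beyond 2 in either direction together with an unadjusted p under 0.01. The estimates were above 0 for 2 genes and below 0 for 4, beside 49.9% above 0 among all tested genes, whose median log2 fold change was -0.0015.

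Ratios of 2 genes within a sample do not depend on library size. Gja5 stood at 1.42%, 1.55% and 2.25% of the FPKM of Gja1 in sham 1 to 3 and at 3.62%, 5.18% and 4.25% in ischemia 1 to 3, so the ratio did not overlap between the groups. On the log2 scale it was 1.34 higher in ischemia (-5.87 ± 0.36 against -4.54 ± 0.26, exact permutation p = 0.1, the smallest possible, and 0.3 adjusted over 3 ratios). Gjc1 stood at 3.34% to 5.10% of Gja1 in sham and 4.64% to 8.83% in ischemia, ranges that overlapped (log2 difference 0.60, exact permutation p = 0.2). The level of Hcn4 relative to Hcn2 was 61.7%, 10.9% and 63.9% in sham and 118.4%, 70.8% and 22.4% in ischemia. Sham 2 and ischemia 3 were low in that ratio, the difference between groups was 0.71 on the log2 scale (exact permutation p = 0.5), and without sham 2 it was -0.13.

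**Figure D3:**
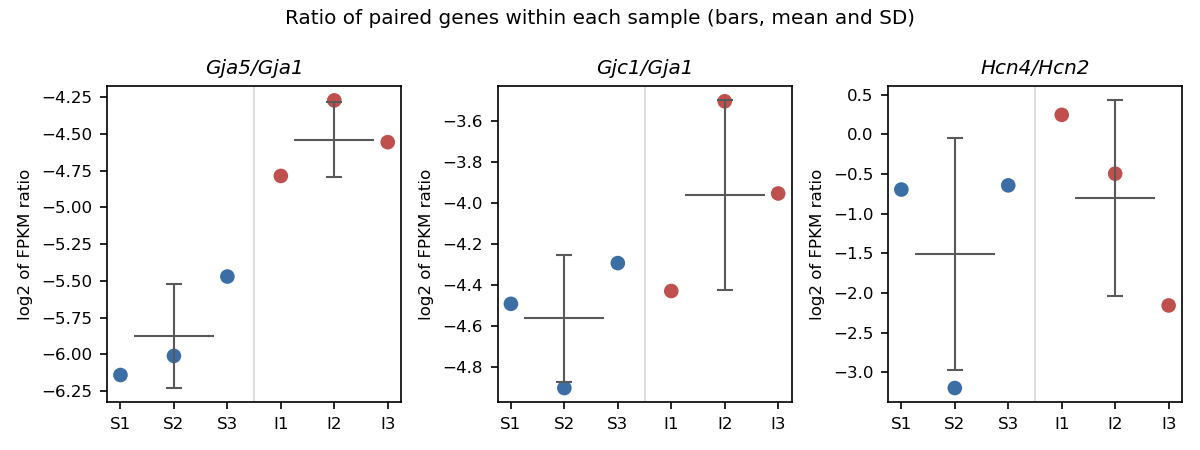
Log2 of the FPKM ratio of 2 genes within each sample, in sham (S1 to S3, blue) and ischemia (I1 to I3, red), with the mean and SD of each group as bars. The Gja5 to Gja1 ratio is higher in all 3 ischemia samples than in any sham sample, and the other 2 ratios overlap between the groups.

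Summed over the 19 connexin genes in the table, FPKM ranged from 140.6 to 262.5 per sample. Gja1 made up 84.2%, 83.7% and 80.3% of that sum in sham and 79.5%, 72.2% and 77.8% in ischemia, without overlap (82.7% ± 2.12 against 76.5% ± 3.81, exact permutation p = 0.1). Gja5 took 1.19% to 1.81% in sham and 2.88% to 3.74% in ischemia, and Gjc1 took 2.80% to 4.10% and 3.69% to 6.38%. The share of Gja4, an arterial endothelial connexin, was 4.77% to 8.02% in sham and 9.82% to 13.9% in ischemia, whereas that of Gja3, best known from the lens, was 4.81% to 5.76% and 1.01% to 2.83%. Shares of 1 sum are bound to each other, so a lower share of 1 gene raises the others.

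By level per gene length, Gja1 ranked first of the 6 in every sample, between the 94.0th and the 97.6th percentile of all tested genes. In sham the order of mean FPKM was Gja1, Hcn2, Scn4b, Gjc1, Hcn4 and Gja5; Gja1 was apart from the next gene and Hcn4 from Gja5, and the neighbours between them overlapped. In ischemia the order was Gja1, Scn4b, Gjc1, Gja5, Hcn2 and Hcn4, in which Gja1 was apart from the next gene and Gjc1 from Gja5. Without sham 2 the sham means of Hcn2 (8.28 FPKM) and Scn4b (6.32 FPKM) lay below that of Gjc1 (8.84 FPKM), and without ischemia 1 the ischemia mean of Scn4b (3.88 FPKM) lay below those of Gjc1 (8.88 FPKM) and Gja5 (5.52 FPKM). Gja5 was thus last in all sham samples and ischemia 1 and rank 3 in ischemia 2 and 3. Hcn2 moved most, between the 26.0th and the 91.1st percentile.

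Genes with the most similar pattern were sought by Pearson's r of log2 CPM (counts scaled to library size) over the 6 samples, among the 7453 or 7454 other genes whose mean FPKM reached 5. With only 6 points, which share libraries and depth, values of r near 1 occur among so many genes and are a description. Gja5 was most like Eef1g (r = 0.997), which encodes an elongation factor subunit, the ribosomal protein gene Rpl27 (0.997) and Alg3 (0.996), a mannosyltransferase gene. Rpl27 had 463.3 to 593.4 FPKM in sham and 842.4 to 873.1 FPKM in ischemia. Gja1 was most like Phc1 (0.997), Polr2m (0.983) and Ndufb3 (0.983), of which Ndufb3 encodes a complex I subunit. Scn4b was most like Mrpl57 (0.999) and Znf48 (0.998), which varied far less in size, and Fgf16 (0.986), a growth factor gene with 20.4 FPKM in sham 2 and 12.4 FPKM in ischemia 1 against 2.37 to 5.78 in the rest. Hcn2 was most like Akt1 (0.995), Tmem14c (0.995) and Pptc7 (0.993), Hcn4 like Tmem80 (0.981), R3hdm4 (0.975) and Mtfmt (0.973), and Gjc1 like the kinase gene Map3k20 (0.946), Larp1b (0.926) and Usp24 (0.904). Among the 6 genes themselves, Scn4b and Hcn2 had the highest r, 0.888, with sham 2 at the top of both.

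**Figure D4:**
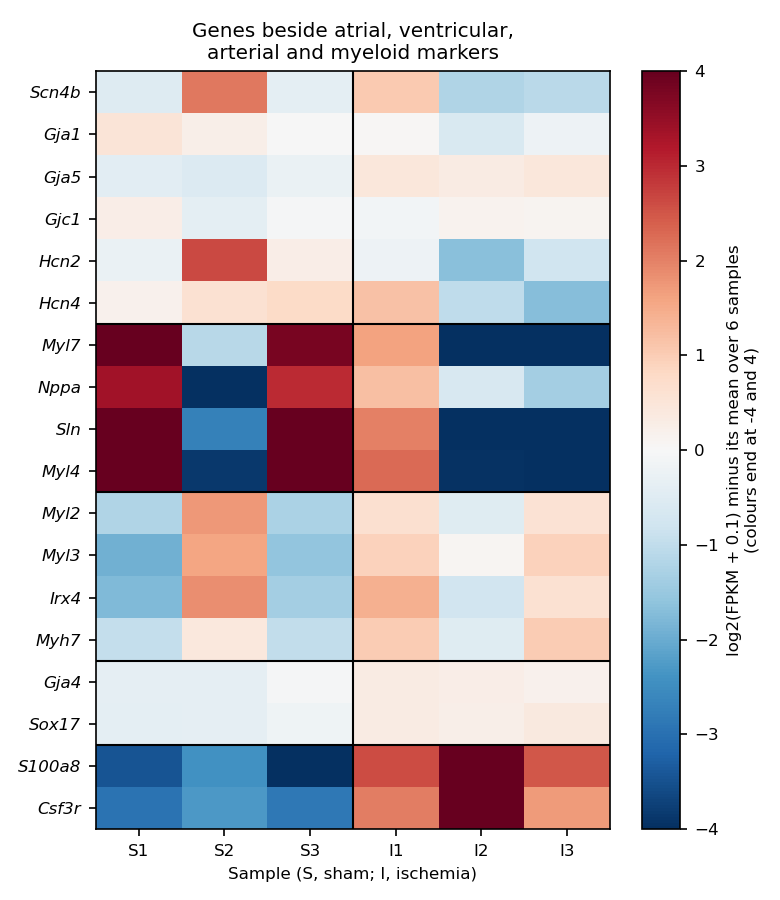
Level of the 6 genes (top block) and of atrial, ventricular, arterial endothelial and neutrophil markers (blocks below) in each sample, as log2(FPKM + 0.1) minus the mean of that gene over the 6 samples, with colours ending at -4 and 4. Scn4b and Hcn2 are highest in S2, which is low in atrial and high in ventricular genes, and Gja5 is higher in I1 to I3. Gja4 and Sox17, the 2 of 5 arterial markers drawn, run the same way, whereas Hey1, not drawn, was lower in ischemia.

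Related genes were followed in 5 lists of 88 genes, of which 83 were in the table and 56 could be tested. Of these 56, 1 passed as higher and 2 as lower by edgeR, the median log2 fold change was -0.78, and 13 lay above 0. The groups did not overlap for 20, 4 with ischemia above and 16 below, patterns that 23.6% and 15.0% of all tested genes had. DESeq2 called 2 higher and 22 lower in the same lists, beside 14.9% and 12.6% of all genes.

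Of the 12 other sodium channel subunit genes, 4 could be tested. Scn7a, which encodes a sodium-sensing channel of glia and other non-excitable cells, fell by 2.33 on the log2 scale (adjusted p = 0.0470), from 4.96, 1.53 and 5.47 FPKM in sham to 1.15, 0.721 and 0.547 FPKM in ischemia. Neuron and Schwann cell markers, among them Snap25 and Uchl1, summed to 37.6 to 179.0 FPKM in sham and 5.23 to 16.1 FPKM in ischemia, and the part of nerve tissue in the Scn7a difference was not tested. Scn3b, a beta subunit gene, had groups apart in the other direction, 0.30 to 2.89 FPKM in sham and 5.59 to 9.03 FPKM in ischemia (2.45, adjusted p = 0.0875). Scn1a had a log2 fold change of -0.04 (adjusted p = 0.950).

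Of 20 other connexin and pannexin genes, 19 were in the table and 6 were tested. Gjb2, an epithelial connexin gene, rose by 4.10 on the log2 scale (adjusted p = 0.0298) from very low levels, 0.06 to 0.12 FPKM in sham and 0.72 to 2.62 FPKM in ischemia, with 12 to 21 counts per sham sample and 144 to 476 per ischemia sample. Gja4 had 12.5, 12.5 and 15.4 FPKM in sham and 19.9, 19.5 and 18.2 FPKM in ischemia, groups apart like those of Gja5, with a log2 fold change of 0.42 (adjusted p = 0.145). Gja3 was at 9.23 to 13.9 FPKM in sham and 1.42 to 5.75 FPKM in ischemia (-1.75, adjusted p = 0.0926). The pannexin genes Panx1 (0.22, adjusted p = 0.852) and Panx2 (-1.72, adjusted p = 0.158) had overlapping groups.

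Among 9 HCN family and modulator genes, none of the 4 tested passed by edgeR. At an unadjusted p under 0.05 edgeR gave 1 lower, beside 32.4% of all tested genes in either direction. DESeq2 called 1 lower, as it did 12.6% of genes. The Popeye domain genes, whose products bind cyclic AMP, had log2 fold changes of -0.62 for Popdc2 (adjusted p = 0.226), -0.78 for Bves (0.223) and -1.49 for Popdc3 (0.279), and Kcne2, an accessory subunit gene, had -1.51 (0.0510). All ischemia samples lay below all sham samples for Popdc2, Bves and Kcne2, as for 15.0% of all tested genes.

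Of 25 partners of these channels and of the junctions between myocytes, 23 were tested and edgeR called 1. At an unadjusted p under 0.05 there were 1 higher and 11 lower, DESeq2 called 10 lower, and 7 had all ischemia samples below all sham samples, beside the shares of all genes given above. In 9 of the 23 tested the highest 2 samples were sham 1 and 3, a pattern of 19.9% of all tested genes. Cav1, which encodes the caveolar coat protein caveolin-1 and is abundant in endothelium, fell by 1.5 on the log2 scale (adjusted p = 0.0422), from 188.8, 193.9 and 220.1 FPKM to 94.0, 53.4 and 77.8 FPKM. Its muscle counterpart Cav3 (-0.58, adjusted p = 0.318), the junctional catenin gene Ctnnb1 (0.02, adjusted p = 0.947) and the sodium channel trafficking gene Rangrf (-0.44, adjusted p = 0.513) did not pass. The median log2 fold change of this list was -0.58.

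All 22 conduction system genes were in the table, 19 were tested and edgeR called none, with a median log2 fold change of -1.26. At an unadjusted p under 0.05 there were 0 higher and 9 lower, and DESeq2 called 9 lower, beside 32.4% of all tested genes at that p in either direction and 12.6% called lower by DESeq2. In 11 of the 19 tested the highest 2 samples were sham 1 and 3, beside the 19.9% of all tested genes; the part of atrial tissue in these values was not tested. The 4 with the highest levels were the transcription regulators Hopx (-0.05, adjusted p = 0.962), Nkx2-5 (-0.36, 0.514), Gata4 (-0.78, 0.114) and Id2 (0.41, 0.568). The sinus node transcription factor gene Shox2, taken after its values were seen as the low end of the list, had counts of 228, 8 and 519 in sham and 17, 8 and 0 in ischemia, high in the same sham samples as the atrial markers. Irx3 and Irx5 of the same list ran the other way, with their lowest values in sham 1 and 3. Irx3 had 0.95, 12.0 and 0.98 FPKM in sham and 9.41, 4.01 and 5.08 FPKM in ischemia.

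**Figure D5:**
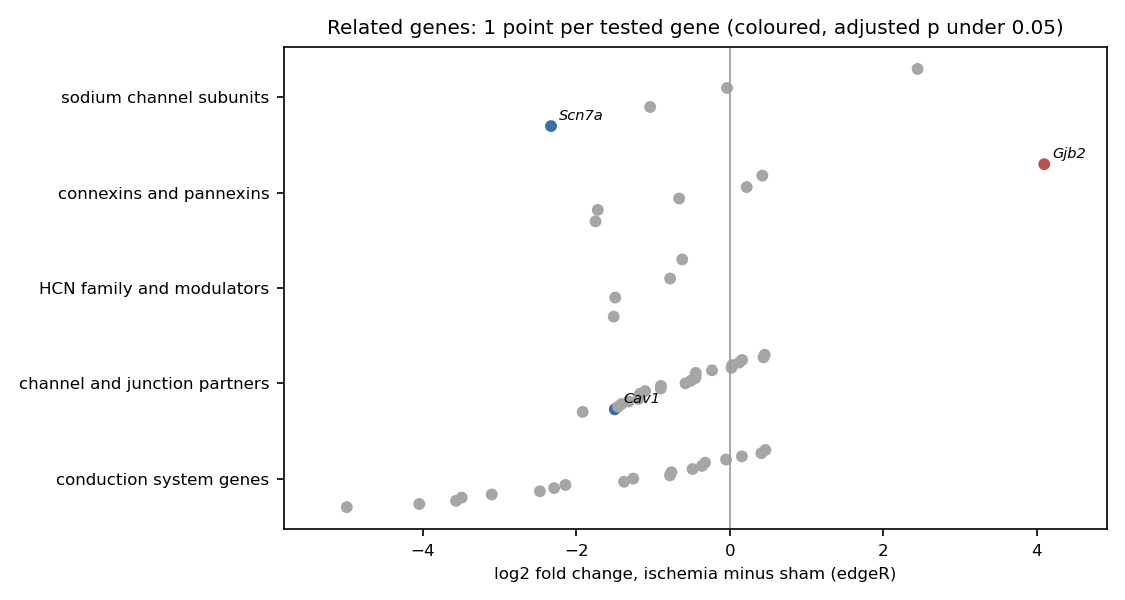
Log2 fold change, ischemia minus sham, of each tested gene in the 5 lists of related genes, 1 point per gene and 1 band per list. Coloured and named points passed the threshold: Gjb2 higher (red), and Scn7a and Cav1 lower (blue); the grey points did not.

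Other cell types were checked by their markers in the same samples. Fibroblast markers, Pdgfra and Col1a1 among them, summed to 698.3 to 2247 FPKM in sham and 271.4 to 706.2 FPKM in ischemia, and smooth muscle markers such as Myh11 and Acta2 to 112.9 to 839.4 and 50.5 to 221.0. Adipocyte markers such as Adipoq and Plin1 reached 186.7 FPKM in sham 3 and were at 20.3 and 36.5 in the other sham samples and 0.21 to 18.8 in ischemia. Lung epithelial genes, Sftpc and Scgb1a1 among them, summed to 410.6 FPKM in ischemia 1 and to at most 15.1 in the others.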

How the data were processed

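Total RNA libraries of 6 samples were made with a stranded kit, and STAR and HTSeq are named, without versions, in the submitters' processing notes; the genome build, annotation and counting rule are not given in the sources used here. The authors deposited 1 table with annotation and, for each sample, raw read counts per gene. The authors also gave FPKM, with 0.0001 for genes without counts.

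Counts were scaled by the trimmed mean of M-values and ischemia was compared with sham by the quasi-likelihood test of edgeR 4.0.16 (R 4.3.3) in genes whose mean FPKM reached 0.5. Standard errors were derived from the F statistic, and two-sided p-values received Benjamini-Hochberg adjustment. Single values and ratios were compared by exact permutation tests (scipy 1.17.1). Alternatives were limma 3.58.1 on log2(FPKM + 0.1) and log2(FPKM + 1), DESeq2 1.42.0, no filter or a minimum mean FPKM of 5, 4 other scalings, removal of mitochondrial genes, a replicate block, an atrial covariate, a myocyte covariate (mean log2 CPM of the cardiomyocyte and ventricular markers together) and each sample left out; sham 2 alone and a ventricular covariate were added after seeing the data. At this depth 3 counts correspond to 0.0377 to 0.0438 CPM, counting error only. The code was tested on simulated data.

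The member genes and all lists were chosen with earlier results of these data known. Named were all 6 genes, list genes past the threshold, the 4 of each related list with the highest mean FPKM, the first 2 of each marker list and the 3 genes most like each member, placeholder names passed over. Outside that rule, Myl3, Irx4, Myh7, the arterial markers beyond the first 2, Scgb1a1, Eif2s3y, Kdm5d, Shox2, and Gja3 and Gja4 as shares were chosen after their values were seen. Listed genes without a row were not analysed here, and some listed genes are not reported here.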

Additional observations from a re-analysis of the deposited data

How the results depend on the processing

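The direction of Gja1, Gja5, Hcn2 and Hcn4 held in every setting that tested them, of 21 in all (19 planned and 2 added after seeing the data); Gja5 and Hcn4 were not tested at a mean FPKM of at least 5. Calls appeared in 3 settings: DESeq2 called Gja5 (0.73) and Hcn2 (-2.50), the ventricular covariate called Hcn2 (-2.68), and leaving out ischemia 1 called Hcn4 (-2.07). Scn4b turned to 0.070 with the myocyte covariate, which includes the ventricular markers and was highest in sham 2, and to 0.46 without sham 2. Gjc1, near 0, turned to -0.0129 with DESeq2, -0.0352 at FPKM of at least 5, -0.0125 with median-ratio, -0.0178 with upper-quartile and -0.0297 with quantile scaling, -0.0165 with the myocyte covariate, and -0.0587, -0.0410 and -0.0649 without sham 2, sham 3 and ischemia 3. The causes were not tested.

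With 1 sample left out, log2 fold changes ranged from -2.35 to 0.46 for Scn4b, -0.74 to -0.37 for Gja1, 0.70 to 0.85 for Gja5, -0.0649 to 0.142 for Gjc1, -2.92 to -0.77 for Hcn2 and -2.07 to -0.18 for Hcn4. The log2 ratio of Hcn4 to Hcn2 ranged from -0.13 (without sham 2) to 1.39. Calls over all genes ranged from 0 to 1490 higher and 0 to 1115 lower, and those over the related lists from 0 to 1 higher and 0 to 10 lower; of the 6 genes 0 were higher and 0 to 1 lower. The 4 fits without sham 1, sham 2, sham 3 or ischemia 3 called 0 genes, with 3090, 3809, 3255 and 3020 at an unadjusted p under 0.05.

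Against 723 genes higher and 214 lower in the main test, DESeq2 called 2071 and 1742, and the myocyte covariate 446 and 116. Lower genes numbered 93 with no filter, 83 with total-count scaling, 443 with quantile scaling (820 higher) and 448 with the ventricular covariate. The replicate block, the atrial covariate and sham 2 alone each called 0 higher and 0 lower, with 3349, 2580 and 1707 genes at an unadjusted p under 0.05. Of the 6 genes, DESeq2 called 1 higher and 1 lower, and the ventricular covariate 1 lower. In the related lists, against 1 higher and 2 lower, DESeq2 gave 2 and 22, quantile scaling 2 higher, FPKM of at least 5 0 higher and 1 lower, no filter 0 lower, limma with either pseudocount 1 lower, total-count scaling and the myocyte covariate 1 lower, and the block, the atrial covariate and sham 2 alone 0 and 0.

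Replicate numbers are shared between the groups. Deviations of same-numbered samples from their group means had correlations of -0.053, -0.083 and -0.192 (mean -0.109). The mean for different numbers, 0.0527, is bound to that value because each group was centered on its own mean. With so few samples these values cannot tell whether same-numbered samples share more than a number. With the replicate block the log2 fold changes were -0.83 for Scn4b, -0.58 for Gja1, 0.75 for Gja5, 0.02 for Gjc1, -1.68 for Hcn2 and -1.27 for Hcn4, adjusted p 0.177 to 0.969. With 409 counts or more for every one of the 6 genes, counting error was small beside the many-fold spread of Scn4b, Hcn2 and Hcn4. It was not set against the narrow spread of Gja5.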
